A study of Mus musculus with 2 samples.

Results

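The replication-dependent histone genes are the clustered genes that supply most of the histone protein of dividing cells. Members were the genes whose symbol begins with Hist1h, Hist2h, Hist3h or Hist4h. This gave 66 of the 19714 genes listed in the P24-30 library and 65 of the 24858 genes listed in the P12 library, with 63 in both and 68 in either. The 66 members at P24-30 were 6 genes of the linker histone H1 and 60 core genes. By symbol, the core genes were 18 of H2A, 18 of H2B, 11 of H3 and 13 of H4. The 65 members at P12 were 6 H1, 18 H2A, 17 H2B, 11 H3 and 13 H4 genes. Hist1h2al, Hist1h2aj and Hist3h2bb-ps are annotated as pseudogenes and were counted in the class of their symbol. Hist1h2bq, Hist1h2br and Hist2h2aa2 were listed at P24-30 alone, and Hist1h2aj and Hist3h2bb-ps at P12 alone. The series holds 2 Drop-seq libraries, 1 from medulloblastoma cells at postnatal days 24 to 30 and 1 from medulloblastoma cells at postnatal day 12. Both came from mice of the genotype hGFAPcre;Ptchc/c, in which a Cre recombinase driven by the human GFAP promoter deletes Ptch alleles in neural precursors and the cells that descend from them. No tumour without the deletion was among the samples, and the number of animals behind each library is not given. The libraries were described one at a time, because they counted the near-identical histone copies in different ways and with 1 library per age no difference between the ages has a replicate check.

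Core histones H2A, H2B, H3 and H4 form the protein spool of the nucleosome, and H1 binds the linker DNA where it enters and leaves. Their genes are transcribed mainly in S phase, when DNA replication doubles the chromatin to be packaged. Their mRNAs are the class of animal mRNAs that end in a conserved stem-loop in place of a poly(A) tail; the stem-loop is bound by the protein Slbp, which guides processing, translation and decay. Drop-seq captures mRNA by its poly(A) tail, so the counts record only those histone transcripts that carry a tail or an internal run of adenines. Some members of the family are known to make polyadenylated transcripts as well, also in cells that no longer divide.

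The letters of the stem-loop, matched to the known consensus on the transcript strand in the GENCODE vM21 transcripts (build mm10), stood after the coding end in 44 of the 68 members. They stood anywhere in a transcript of 136 of 21901 protein-coding genes, or 0.621%. That second count is over all protein-coding genes, members among them, and is not limited to letters after the coding end, so the shares are not like for like. In many of the other members the annotated transcript stops at the coding end, as in Hist1h1b, Hist1h2an and Hist1h3i with 0 bases after it. The letters could not be found there, so their absence does not show that a gene lacks the stem-loop. Others without the letters ran on, as Hist1h2bc did by 742 bases. In 24 members the letters were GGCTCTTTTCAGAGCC, in 7 they were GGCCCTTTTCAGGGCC and in 6 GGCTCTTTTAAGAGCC. The sequences of 8 members named below are shown because this element, and how far the annotated transcript runs past it, sets these genes apart from other mRNAs, with the stem-loop letters in capitals and 5 bases on each side.
Hist1h1c: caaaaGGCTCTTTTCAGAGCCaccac
Hist1h1e: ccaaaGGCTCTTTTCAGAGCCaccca
Hist1h2ao: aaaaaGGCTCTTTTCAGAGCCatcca
Hist1h2bm: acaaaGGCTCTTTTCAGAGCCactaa
Hist1h3c: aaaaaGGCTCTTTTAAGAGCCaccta
Hist1h4i: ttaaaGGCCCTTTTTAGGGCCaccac
Hist3h2a: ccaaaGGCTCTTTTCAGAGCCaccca
Hist3h2ba: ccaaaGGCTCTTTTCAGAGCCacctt
These lie at chr13:23739507-23739532 (plus strand) for Hist1h1c, chr13:23621777-23621802 (minus) for Hist1h1e, chr13:21810893-21810918 (plus) for Hist1h2ao, chr13:21722501-21722526 (plus) for Hist1h2bm, chr13:23745042-23745067 (minus) for Hist1h3c and chr13:22040961-22040986 (minus) for Hist1h4i. Hist3h2a and Hist3h2ba neighbour each other on chromosome 11, with their stem-loops at chr11:58955167-58955192 and chr11:58949344-58949369, both on the plus strand. Of the 68 members, 56 lie on chromosome 13, 8 on chromosome 3, 3 on chromosome 11 and 1 on chromosome 6. The annotated transcript ran on past the stem-loop by 31 bases in Hist1h2ao and 3 bases in Hist1h2ap, against 840 bases in Hist1h1c, 1153 in Hist1h1e, 1643 in Hist3h2a and 169 in Hist3h2ba.

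After cells under 500 UMIs (unique molecular identifiers, 1 per captured transcript) or over 20% mitochondrial UMIs were left out, 4796 of 4991 cells remained at P24-30, with a median of 2193.5 UMIs, and 5723 of 6000 at P12. Levels are given as CPM, the UMIs per 1000000 UMIs of the summed cells, and ratios with 95% exact intervals that cover counting error only. Each cell of the P24-30 library carries 1 of 16 tags, G1 to G16, which the labels do not explain and which may have been set from the same expression values, so differences between tags are descriptions. Tag G13, with 505 cells, had the markers of neurons at 11086 CPM and the mitotic markers at 329, and is set below against the tags high in cell-cycle markers. It also had 5 of 5 choroid plexus and ependyma markers, at a sum of 17464 CPM, against 89.9 in G2, 82.2 in G1 and 93.1 in G16. Of these marker UMIs, 17195 of 17372 came from 5 cells of 6014 to 50361 UMIs, which held 10.3% of all UMIs of G13. Without these 5 cells, G13 had neuron markers at 12291 CPM and choroid plexus and ependyma markers at 198, and the ratios to G13 are given below with and without them. At P12 no cell annotation was used; cells were clustered with all members left out, and clusters were named from marker lists. The S-phase-like cluster had 8 of 24 S-phase markers raised, the G1/S-licensing-like cluster 15 of 22 licensing markers, and the clusters joined as mitotic-like 26 and 25 of 26 mitotic markers. The S-phase markers did not set the S-phase-like cluster apart from the licensing cells, with sums of 5767 and 5763 CPM, while its mitotic markers were at 8055 CPM, against 2104 in the licensing cells, so the state names are those of clusters and not of measured cycle phases. The neuron-like cluster had 11 of 12 neuron markers raised. Hbb-bs, a haemoglobin gene of red blood cells, was among the 10 leading genes of the S-phase-like cluster, and the part of such RNA in the results was not tested. Columns of the P24-30 library carry a tag and a running number and no cell barcode, so barcodes shared between the libraries could not be counted, and doublets were not removed.

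At P24-30 the members took 196794 UMIs, or 1.62% of all UMIs, and H2A alone took 179990 of them. H2B had 7803, H4 3527, H3 3215 and H1 2259 UMIs. Hist1h2ao, Hist1h2ap and Hist1h2ag, copies in the large cluster on chromosome 13, held 45.9% of the H2A UMIs. Their counts moved almost as 1 gene from cell to cell. Hist1h2ao and Hist1h2ap correlated at a Pearson r of 0.989 over cells and had the same count in 1048 of the 3223 cells with either, and 66 of 153 pairs of H2A members reached an r of 0.85. The transcripts of Hist1h2ap (482 bases) and Hist1h2ao (480 bases) share an identical run of 452 bases, so a read may fit both. Whether 1 molecule was counted for several copies is not stated; taking only the highest H2A copy in each cell left 35383 UMIs. At P12 the highest correlation between H2A members was 0.254, and 0 of 78 pairs reached 0.85. These pairs were of the 13 H2A members with at least 50 UMIs, so Hist1h2ao and Hist1h2ap were not among them. In the S-phase-like cells of P12 Hist1h2ao had 4 UMIs and Hist1h2ap 3. The H2A sum at P12 thus holds almost nothing of these copies. There H1 held 55.6% of the member UMIs, with 19557, against 5285 for H2A, 4950 for H2B, 3274 for H4 and 2111 for H3. These shares therefore describe each library and its counting, and values of single H2A copies at P24-30 are uncertain. Some H2B and H4 copies carry the same limit. The transcripts of Hist1h2bq and Hist1h2br share an identical run of 1603 bases, and their r at P24-30, 0.557, was the highest within H2B. Within H4 the highest r there was 0.591, between Hist1h4m and Hist1h4n. Within H1, Hist1h1e was compared with some members and shares identical runs of 146 bases with Hist1h1c, 122 with Hist1h1d and 47 with Hist1h1b. Other H1 pairs were not compared. At P24-30 Hist1h1d and Hist1h1e correlated at an r of 0.757 over cells, against a median of 0.105 over H1 pairs. Their separate values there are therefore uncertain too.

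At P24-30 the summed core histones stood highest in tags G2 and G1. H2A reached 42842 CPM in G2 (892 cells) and 35523 in G1 (353 cells), against 800 in G13. Tag G16 had 3709, tag G3 4650, tag G4 6337 and tag G11 5193 CPM of H2A. G2 and G1 thus stood far above every other tag, and G4 and G11, the second of which had neuron markers at 13013 CPM, stood above G16. The mitotic markers followed another order, with 13886 CPM in G16, 9480 in G1 and 3666 in G2. The S-phase markers were at 4003 in G2, 3225 in G3 and 2916 in G1. H3 stood at 615 in G2, 542 in G1, 241 in G16 and 192 in G3, against 25.1 in G13. H4 was at 566 in G2 and 493 in G1, against 86.5 in G13. Tag G10 stood above both in H4, with Hist1h4i alone at 696 CPM, and 44 of its 47 UMIs came from 1 cell. H2B had a narrower range, at 1330 in G1 and 949 in G2, against 403 in G13. The 11 cells of G9 also stood above G2 in H2B. H1 was at 385 in G1 and 349 in G2, against 121 in G13, and at 111 in G16 and 131 in G3. In tag G8, where 12 of 12 microglia markers were detected at a sum of 29982 CPM, H3 had 0 UMIs and H2A 903 CPM over 35 cells.

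**Figure D1:**
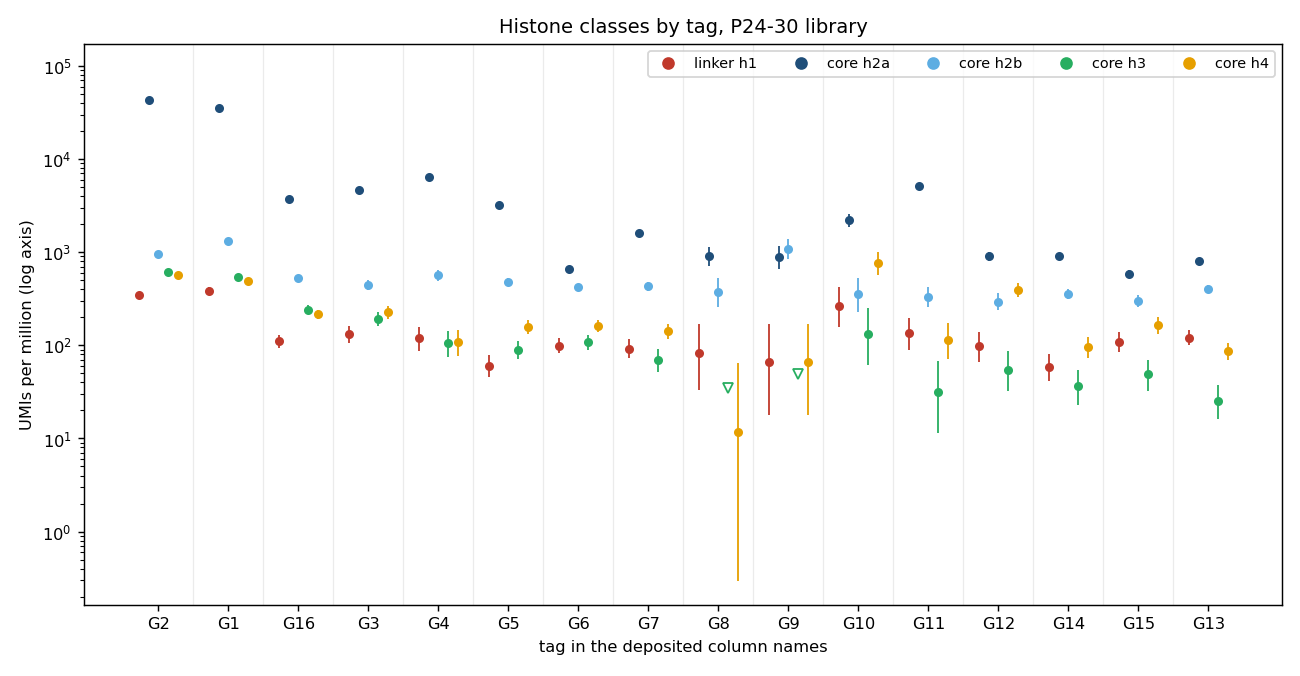
Summed level of each histone class in CPM (log axis) in the tags of the P24-30 library, with bars for the 95% counting interval; open triangles mark the upper limit of a count of 0 for H3 in G8 and G9. H2A in G2 and G1 lies far above all other tags, while H2B and H1 span a narrower range.

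The high H2A level of G2 and G1 was spread over their cells, with little overlap with G13. The H2A share of a cell's UMIs in G2 had a lowest value of 0.680%, a median of 4.14% and a highest value of 11.4%. In G1 it ran between 1.08% and 10.3% with a median of 3.21%. In G13 it ran between 0 and 1.12% with a median of 0.0336%. The 5th percentile of G2, 1.60%, lay above the highest value of G13 and above the 95th percentile of G16, which was 1.31%. In G16 the lowest value was 0, the median 0.273% and the highest 2.00%. The tags may themselves rest on these genes, so the split is given as a description. H1 was sparser, with a UMI in 972 cells, against 3751 for H2A. Of its UMIs 75.5% sat in the 480 cells that held most of them, against 55.7% for H2A. These shares rest on 2259 and 179990 UMIs and were not matched for this total, so they do not compare how the classes spread over cells. With each cell thinned to 500 UMIs, 13.9% of G2 cells and 20.1% of G1 cells had an H1 UMI, against 4.55% in G13. The share was 11.4% in the 35 microglia-marked cells of G8, so the share in G2 lies near that of cells of another type, although G8 holds too few cells to fix it.

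**Figure D2:**
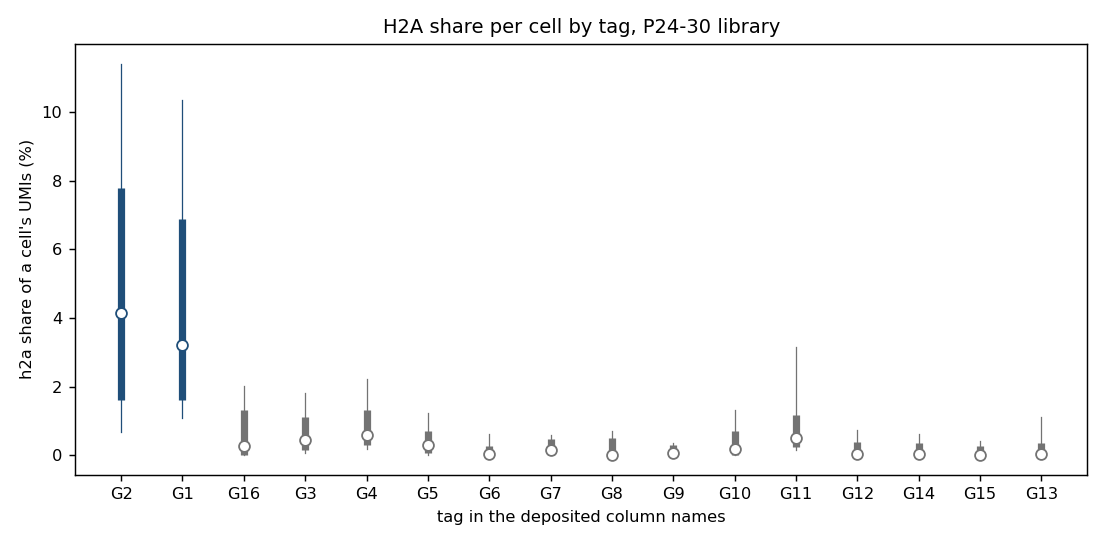
H2A share of each cell's UMIs in percent by tag of the P24-30 library; the circle is the median, the thick line runs between the 5th and 95th percentiles and the thin line between the lowest and highest cell. The lowest cell of G2 stands at 0.680% and the highest cell of G13 at 1.12%, so only the edges of these tags overlap.

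Of the 66 members at P24-30, 63 had at least 50 UMIs in all kept cells. Between G2 and G13, 58 of the 63 were at least 2-fold higher in G2 and 2 were at least 2-fold lower, against 8.72% and 19.3% of the 11085 genes with at least 50 UMIs. By class, the members at least 2-fold higher were 4 of 5 for H1, 17 of 18 for H2A, 15 of 18 for H2B and 11 of 11 for both H3 and H4. The median ratio of the members was 7.45, against 0.853 (-0.23 in log2) over all these genes. The summed core level was 34.2-fold higher in G2 than in G13 (32.4 to 36.1), and the linker level 2.89-fold (2.39 to 3.52). With each cell thinned to 500 UMIs the linker ratio was 4.43. Without the 5 choroid plexus-marked cells of G13 the core ratio was 33.9 and the linker ratio 3.24, with 59 members at least 2-fold higher and 2 lower, against 9.28% and 17.8% of all genes. H2A accounted for most of the core difference: its ratio was 53.5, that of H3 24.5, that of H4 6.54 and that of H2B 2.36. With the highest H2A copy per cell in place of their sum the H2A ratio was 25.6 (22.9 to 28.6), and H2B, H3 and H4 together gave 4.14 (3.78 to 4.54). Between G1 and G13, 58 members were at least 2-fold higher and 1 lower, against 9.18% and 20.5% of all genes, with a core ratio of 28.8 and a linker ratio of 3.19 (2.61 to 3.93), or 5.01 with cells thinned. Without the 5 cells the core ratio was 28.6 and the linker ratio 3.58, with 60 members higher and 1 lower, against 9.56% and 19.2% of all genes.

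Within H2A at P24-30, Hist1h2ap was at 7792 CPM in G2, against 97.5 in G13. Hist1h2ao was at 7679, against 111, and Hist1h2ag at 4345, against 53.3. Of the 18 H2A members, 17 had their highest level of any tag with at least 50 cells in G2. All 11 H3 members also had it there, while 16 of 18 H2B members had it in G1. Hist1h2bq, an H2B gene, was at 81.9 CPM in G2, against 18.1 in G13. Hist1h3c was at 91.7 CPM in G2, against 2.01 in G13, and Hist1h3h at 61.8, against 4.02. Hist1h3i was at 87.3, against 1.01, the second value resting on 1 UMI, and Hist1h3b had none in G13. The H4 members Hist1h4i, Hist1h4n and Hist1h4m were at 126, 90.6 and 68.7 CPM in G2, against 15.1, 13.1 and 7.04 in G13. H4 thus differed by 6.94-fold to 9.76-fold in these members, less than the named H2A copies.

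The linker members differed by less. In G2, Hist1h1e was at 122 CPM, Hist1h1d at 82.2, Hist1h1c at 70.2, Hist1h1b at 55.6 and Hist1h1a at 18.3. In G13 Hist1h1e was at 36.2, Hist1h1d at 25.1, Hist1h1c at 47.3, Hist1h1b at 9.05 and Hist1h1a at 3.02. The ratios were 6.14 for Hist1h1b and 6.06 for Hist1h1a, 3.36 for Hist1h1e and 3.27 for Hist1h1d, and 1.49 for Hist1h1c. For Hist1h1c, 20 of the 47 UMIs of G13 came from the 5 choroid plexus-marked cells, and without them its level in G13 was 30.3 CPM and its ratio 2.32 (1.54 to 3.61), past the 2-fold limit. The same 5 cells held none of the Hist1h1a and Hist1h1b UMIs of G13 and 2 each of those of Hist1h1d and Hist1h1e. With cells thinned, the ratio was 15.9 for Hist1h1b and 1.13 for Hist1h1a, each on few UMIs.

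Tag G3, high in licensing markers, had a linker ratio of 1.09 and a core ratio of 4.19 to G13, with 46 of the 63 members at least 2-fold higher and 2 lower, against 9.71% and 18% of all genes. Without the 5 choroid plexus-marked cells of G13 these ratios were 1.22 and 4.16. Tag G16 carried the most mitotic markers and much less histone RNA than G2. In G16 the linker level was not separated from that of G13, with a ratio of 0.922 (0.721 to 1.18), and the core ratio was 3.57. Against G13, 42 of the 63 members were at least 2-fold higher in G16 and 3 lower, against 7.81% and 19.5% of all genes. Without the 5 choroid plexus-marked cells of G13 the linker ratio was 1.03 (0.796 to 1.35) and the core ratio 3.54, with 39 members higher and 3 lower, against 8.1% and 17.9% of all genes. With all cells of G13 kept, the ratio of G16 to G13 by class was 9.61 for H3, 4.63 for H2A, 2.49 for H4 and 1.31 for H2B. Between G2 and G16 themselves, the core ratio was 9.58 and the linker ratio 3.13; 52 of 63 members were at least 2-fold higher in G2 and 1 lower, against 7.89% and 4.98% of all genes. Hist1h1a had the largest linker ratio between them, 12.6, on 50 UMIs in G2 and 2 in G16, and the other H1 members had ratios of 2.61 to 3.33.

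**Figure D3:**
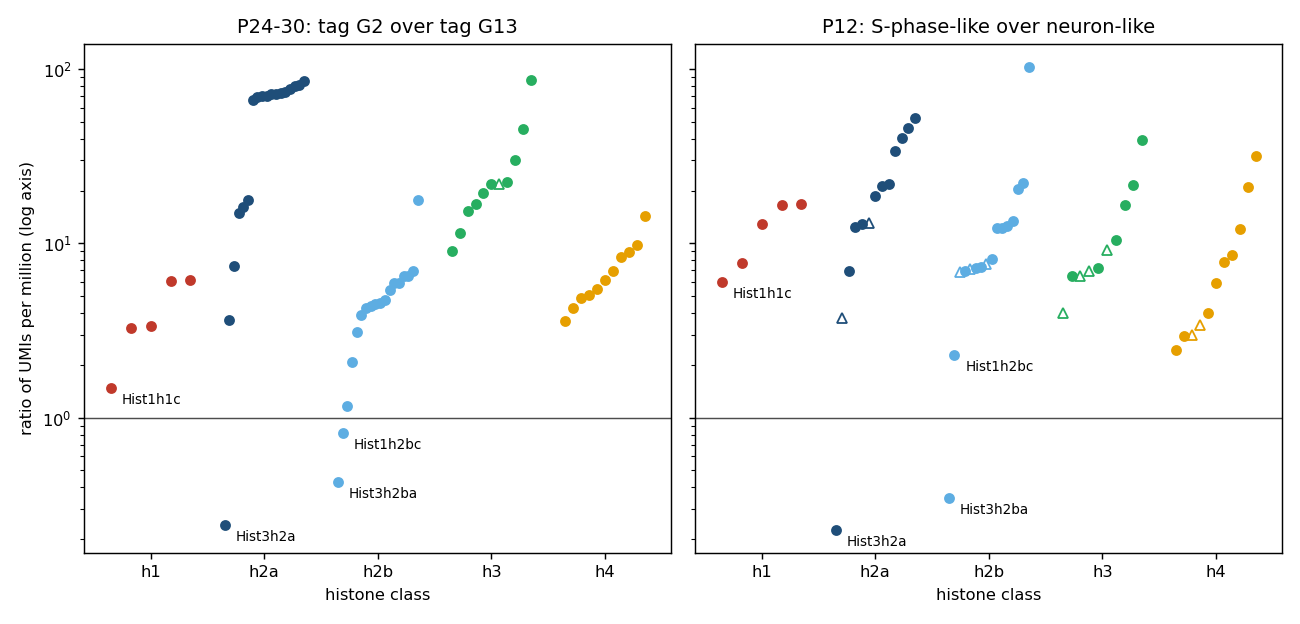
Ratio of levels (log axis) for each member with at least 50 UMIs, by histone class, for G2 over G13 in the P24-30 library (left) and S-phase-like over neuron-like cells in the P12 library (right); open triangles are lower bounds where the second group had no UMI. Most points lie above 1, H2A members reach 85.9 on the left, and Hist3h2a and Hist3h2ba lie below 1 in both panels.

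At P12 the linker genes led in counted UMIs, in a library whose H2A sum held almost nothing of Hist1h2ao and Hist1h2ap. H1 was at 1584 CPM in the G1/S-licensing-like cells (753 cells), 3799 in the S-phase-like cells (1164) and 1654 in the mitotic-like cells (1084), against 368 in the neuron-like cells (564). H2A was at 412, 831 and 518 in these states, against 256 in the neuron-like cells. H2B was at 378, 705 and 480, against 252. H3 was at 174, 361 and 224, against 17.9, and H4 at 304, 533 and 294, against 65.1. Every class was highest in the S-phase-like cells among the 3 cycling states. H1 was at 432 in the microglia-like cells, near the neuron-like level, and at 541 in the oligodendrocyte-lineage-like cells, above it. The cluster that mixed choroid plexus and astrocyte genes stood higher, with Hist1h1e alone at 561 CPM, 22 of its 66 UMIs from 1 cell.

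**Figure D4:**
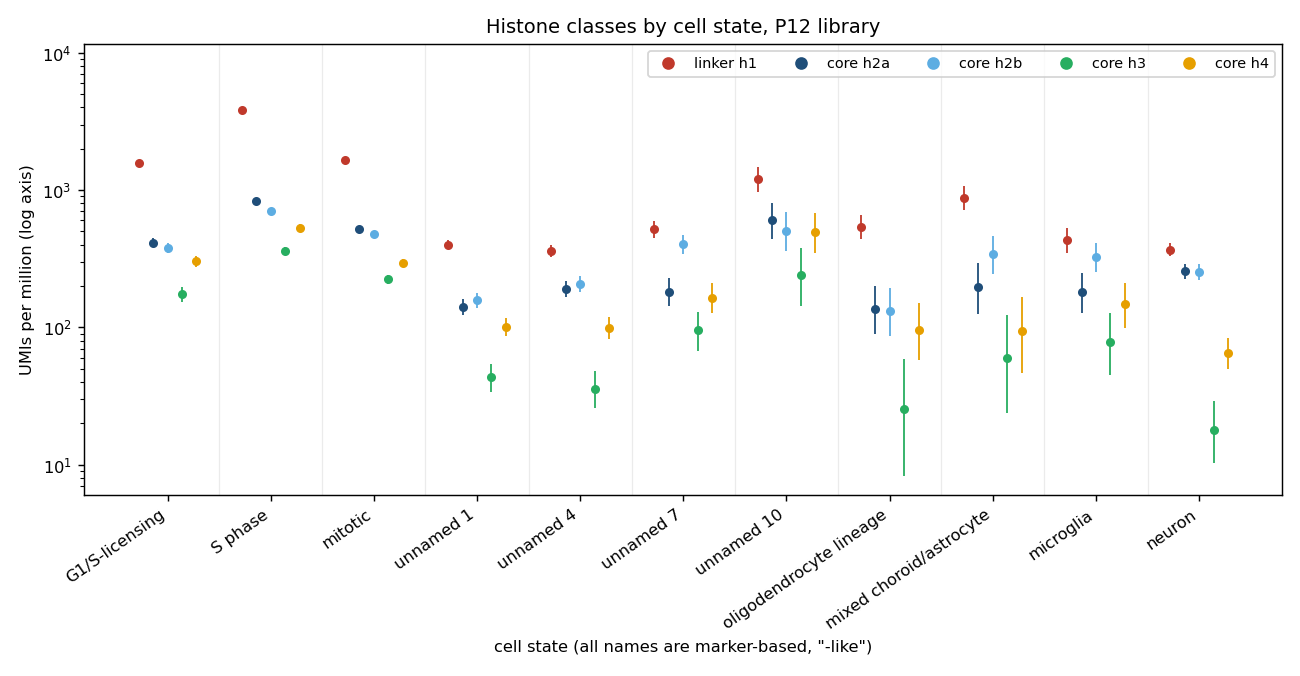
Summed level of each histone class in CPM (log axis) in the states and unnamed clusters of the P12 library, with bars for the 95% counting interval. All classes peak in the S-phase-like cells among the cycling states, with H1 at 3799 and H3 at 361 CPM.

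The linker level was 10.3-fold higher in S-phase-like than in neuron-like cells (9.25 to 11.6), and the core level 4.11-fold (3.76 to 4.50). Of the 65 members, 55 had at least 50 UMIs; 53 were at least 2-fold higher and 2 at least 2-fold lower, against 16.3% and 15% of 11564 genes. The median ratio of the members was 9.15, against 1.00 over all genes. In this median 11 members without a UMI in the neuron-like cells entered with a ratio computed against 3 counts over those cells. That ratio is not the lower limit of the interval, which was 10.5 for the ratio of 13.1 of Hist1h2ah. The G1/S-licensing-like cells had a linker ratio of 4.30 and a core ratio of 2.14 to the neuron-like cells, with 47 members higher and 2 lower, against 18.3% and 14.1% of all genes. The mitotic-like cells had a linker ratio of 4.50 and a core ratio of 2.56, with 48 higher and 2 lower, against 14.7% and 14.1%. Without the 3 Hist3 members the core ratio was 7.27 for licensing and 8.15 for mitotic-like cells, above the linker ratios. With states taken from per-cell scores in place of clusters, the S-phase-like linker ratio was 6.75 and the core ratio 3.26. With the members kept in the clustering, the licensing linker ratio was 1.67 and the core ratio 1.25, so the licensing values depend on how that state is drawn.

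The core ratio at P12 hid a split. Without the 3 Hist3 members, core RNA was 13.9-fold higher in S-phase-like than in neuron-like cells (11.8 to 16.5), with H2A at 24.0 and H2B at 12.5. The 3 Hist3 members, by contrast, summed to 0.321 of the neuron-like level (0.277 to 0.371) and supplied 380 of the 527 core UMIs of the neuron-like cells. That sum was made by Hist3h2a and Hist3h2ba, since the third, the pseudogene Hist3h2bb-ps, was at 16.3 CPM in S-phase-like cells, against 2.24 in neuron-like cells, which is 2 UMIs. Hist3h2a was at 29.1 CPM in licensing, 50.8 in S-phase-like and 74.6 in mitotic-like cells, against 223 in neuron-like cells. Hist3h2ba was at 36.0, 69.7 and 89.8 in these states, against 201. The S-phase-like to neuron-like ratios were 0.228 (0.182 to 0.284) and 0.347 (0.281 to 0.428). The same genes stood out at P24-30. Hist3h2a was at 31.4 CPM in G2, against 130 in G13, a ratio of 0.242 (0.182 to 0.321), and reached 225 in G12, 162 in G11 and 153 in G14. Hist3h2ba was at 54.1 in G2, against 127 in G13, a ratio of 0.427 (0.334 to 0.546), and reached 177 in G11 and 167 in G12. Without the 5 choroid plexus-marked cells Hist3h2a was at 142 and Hist3h2ba at 141 CPM in G13. Without the Hist3 members the core ratio of G2 to G13 was 42.4. Each of these Hist3 genes was compared with a single Hist1 copy. The longest identical run was 91 bases in the 2146 of Hist3h2a against Hist1h2ao. For Hist3h2ba, of 614 bases, it was 44 bases against Hist1h2bm. Runs shared with other Hist1 copies were not examined.

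Hist1h2bc, an H2B gene, followed neither pattern. At P12 it was at 12.0 CPM in licensing, 38.6 in S-phase-like and 35.8 in mitotic-like cells, against 16.8 in neuron-like cells, and it was highest outside these states. It was at 221 in microglia-like cells, 172 in unnamed cluster 7 and 170 in the cluster that mixed choroid plexus and astrocyte genes. At P24-30 it was at 78.2 in G2, against 95.5 in G13, a ratio of 0.819 (0.640 to 1.05). There 51 of the 95 UMIs of G13 came from the 5 choroid plexus-marked cells. Without them its level in G13 was 49.3 CPM and the ratio 1.59 (1.14 to 2.25), so the direction turned and none is given.

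Within H1 at P12, Hist1h1e and Hist1h1b held 94.3% of the UMIs. Hist1h1b was at 728 CPM in licensing, 1628 in S-phase-like and 660 in mitotic-like cells, against 96.5 in neuron-like cells. Hist1h1e was at 738, 1965 and 926, against 254. Relative to Hist1h1b, Hist1h1e took its largest part in neuron-like cells among these states: its UMIs were 1.01 times those of Hist1h1b in licensing, 1.21 times (1.16 to 1.26) in S-phase-like and 1.40 times (1.32 to 1.49) in mitotic-like cells, against 2.63 times (2.04 to 3.41) in neuron-like cells. At P24-30 the same quotient was 2.19 (1.80 to 2.67) in G2, 2.78 (2.07 to 3.77) in G1, 1.76 (1.09 to 2.88) in G16 and 4.2 (2.07 to 9.39) in G6, against 4.0 (1.89 to 9.44) in G13, where Hist1h1b had 9 UMIs. These intervals overlap, and differences in this quotient between tags were not tested. Hist1h1a was at 73.3, 116 and 22.7 CPM in the cycling states, against 8.97 in neuron-like cells, and its ratio of S-phase-like to mitotic-like cells was 5.13 (3.92 to 6.80). Hist1h1a was thus lower in mitotic-like than in licensing cells, while Hist1h1e was higher there. Hist1h1d was at 22.1, 55.6 and 26.8, against 3.37, and Hist1h1c at 22.1, 33.7 and 18.9, against 5.61.

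**Figure D5:**
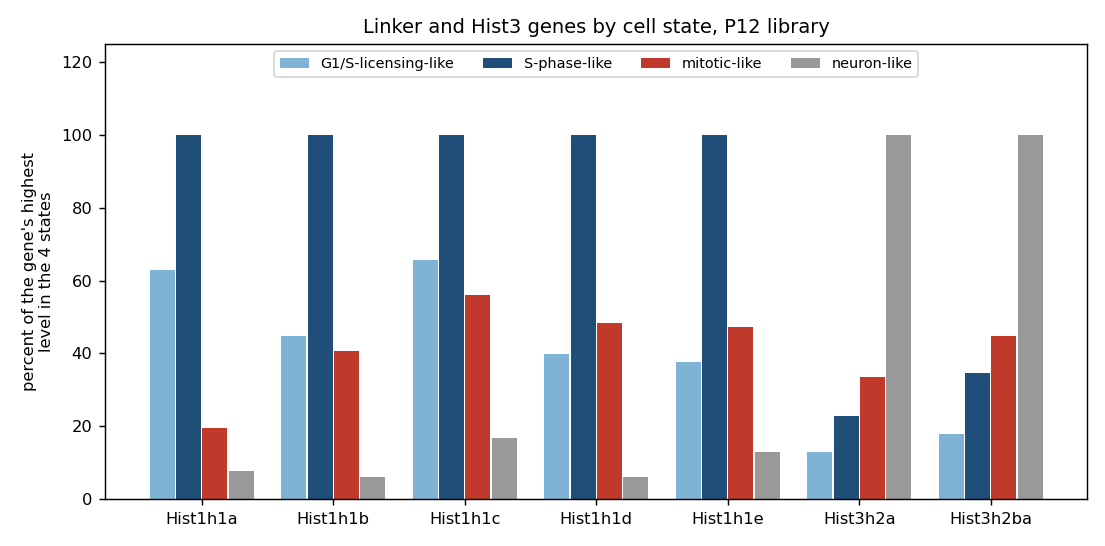
Level of each gene as a percent of its highest level over 4 states of the P12 library, for the 5 linker genes with at least 50 UMIs and for Hist3h2a and Hist3h2ba. The linker genes peak in the S-phase-like cells, Hist1h1a is lower in mitotic-like (22.7 CPM) than in licensing cells (73.3 CPM), and both Hist3 genes peak in the neuron-like cells.

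Among the core members at P12, Hist1h2an and Hist1h2ag were at 168 and 148 CPM in S-phase-like cells, against 7.85 and 6.73 in neuron-like cells. Hist1h2bj was at 139, against 6.73, and Hist1h2bm at 115, against 1.12, which is 1 UMI, so that its ratio of 103 has an interval of 18.3 to 4073. Hist1h3c was at 122, against 5.61, Hist1h3i at 44.1, against 1.12, and Hist1h3g at 37.5, against 2.24. Hist1h4i was at 190, against 15.7, Hist1h4n at 113, against 14.6, and Hist1h4h at 38.6, against 4.49. The named H4 genes thus had ratios of 7.78 to 12.1 and the named H3 genes of 16.7 to 39.3.

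The difference between the S-phase-like and the other cycling cells was smaller than that to the neuron-like cells. S-phase-like cells had 2.30 times the linker level (2.22 to 2.38) and 1.60 times the core level (1.54 to 1.67) of mitotic-like cells, with 17 of 55 members at least 2-fold higher and 0 lower, against 3.94% and 3.23% of all genes. Over the licensing cells the ratios were 2.40 (2.30 to 2.51) for linker and 1.92 (1.82 to 2.02) for core, with 26 members at least 2-fold higher and 0 lower, against 3.71% and 4.28% of all genes. Across all cycling cells, binned by mitotic-marker UMIs per 500, H1 was at 1278 CPM with 0, 2785 with 1 to 2, 3599 with 3 to 5 and 1932 with 6 or more. Core RNA was at 1084, 1860, 2258 and 1705 in the same bins. With cells thinned to 500 UMIs, an H1 UMI was found in 33.9% of licensing, 74.3% of S-phase-like and 37.1% of mitotic-like cells, against 16.7% of neuron-like cells and 13.6% of microglia-like cells. Without thinning these shares were 64.3%, 95.7% and 68.9%, against 38.5% and 43.2%. The neuron-like share lay near the microglia-like one, at median depths of 1434 and 2091 UMIs, and how much of either comes from free RNA was not tested.

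Slbp, which binds the stem-loop, was highest in G2 at P24-30 and in the licensing cells at P12. At P24-30 it was at 268 CPM in G2, 236 in G3, 114 in G1 and 59.6 in G16, against 62.3 in G13. At P12 it was at 150 in licensing, 133 in S-phase-like and 39.2 in mitotic-like cells, against 32.5 in neuron-like cells. Of the 12 measured genes of the list of histone mRNA 3′ processing, 4 were at least 2-fold higher and 1 lower in G2 than in G13, and 3 higher and 0 lower in S-phase-like than in neuron-like cells. Over all genes the shares higher and lower were 8.72% and 19.3% in the first comparison and 16.3% and 15% in the second, so the 3 of 12 lie near the share of all genes. Of 14 histone chaperones, which carry histones to DNA, 6 were higher and 1 lower in G2, and 9 higher and 0 lower in S-phase-like cells. Nasp, a chaperone of H1 and of H3 with H4, was at 1615 CPM in G2, against 229 in G13. Of 11 replication-independent histone genes, whose mRNAs have poly(A) tails, 4 were higher and 0 lower in each comparison. H2afx, the variant phosphorylated at DNA breaks and the one of these genes that also makes a stem-loop mRNA in S phase, was at 936 in G2, 1000 in G1 and 370 in G16, against 30.2 in G13. At P12 H2afx was at 144, 368 and 512 in licensing, S-phase-like and mitotic-like cells, against 41.5 in neuron-like cells, so there its highest state was mitotic.

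Over the 14 tags with at least 50 cells and 3903 genes, the genes most like the core sum on a log scale were H2afx at a Pearson r of 0.929, Ska1 at 0.834, Tk1 at 0.821 and Top2a at 0.806, with Ncapg, Neil3, Cmc2 and Spc24 next. Tk1 makes the thymidine nucleotide for DNA synthesis, and Top2a untangles DNA before division. For the linker sum they were Mars at 0.811 and Whsc1 at 0.792, with Ctcf, Melk, Pcnt, Aars, Atxn2l and Cdca2 next, and for H2B, H3 and H4 together Esco2 at 0.916. The 14 points share 1 library and differ in depth, so these values only describe it.

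Members were also grouped by how their annotated transcript ends. For G2 over G13, the 19 members whose transcript runs at least 100 bases past the stem-loop had a median ratio of 4.28, the 22 that end within 100 bases 12.9 and the 22 without the letters 8.21. For S-phase-like over neuron-like cells the medians were 7.27 over 19 members, 15.04 over 18 and 11.5 over 18. Among members with the letters, those with the longer run past them had the smaller median in both comparisons, and members without the letters lay between. For G1/S-licensing-like over neuron-like cells the members without the letters did not lie between. Their median was 6.57, against 3.83 for the longer run and 6.48 for the shorter. The group without the letters mixes transcripts whose annotation stops at the coding end with longer ones, so it is not a class of transcript ends. Copies within these groups share reads, and the cause was not tested.

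Promoters were matched in RefSeq (GRCm38.p6) for 59 of the 68 members, as windows of 250 bases before and 50 after the start. Searched on both strands, TATAAA stood in 57.6% of them, against 14.2% of 27025 promoters of all genes, and CCAAT in 84.7%, against 37.9%. CCAAT stood in all matched H1, H2A, H2B and H3 promoters and in 3 of 12 H4 promoters. ATTTGCAT, the octamer known from H2B promoters, stood in 22%, against 1.75%, in 7 of 16 H2A and 6 of 16 H2B windows and in no other class. AAACACA, known from H1 promoters, stood in 5 of 6 H1 windows and in 15.3% of all members, against 7.14%. The 250 bases before the start are shown for a linker and a core gene that were high in S-phase-like cells and for both Hist3 genes that were high in neuron-like cells, with matches to these 4 motifs on either strand in capitals.
Hist1h1e: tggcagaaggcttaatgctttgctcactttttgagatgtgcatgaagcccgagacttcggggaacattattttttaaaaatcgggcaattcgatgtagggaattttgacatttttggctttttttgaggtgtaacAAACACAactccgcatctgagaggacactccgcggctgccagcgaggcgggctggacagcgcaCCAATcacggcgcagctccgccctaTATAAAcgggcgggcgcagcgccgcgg
Hist1h2bm: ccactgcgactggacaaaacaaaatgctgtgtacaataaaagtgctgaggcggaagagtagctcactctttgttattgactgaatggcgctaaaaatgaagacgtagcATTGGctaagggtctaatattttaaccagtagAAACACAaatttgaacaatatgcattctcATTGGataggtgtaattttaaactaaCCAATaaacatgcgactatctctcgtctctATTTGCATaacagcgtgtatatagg
Hist3h2a: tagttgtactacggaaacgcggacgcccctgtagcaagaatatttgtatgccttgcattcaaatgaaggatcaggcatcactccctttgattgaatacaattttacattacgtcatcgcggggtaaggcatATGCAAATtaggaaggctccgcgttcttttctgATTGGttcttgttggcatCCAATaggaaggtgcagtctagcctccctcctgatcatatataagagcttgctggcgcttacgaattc
Hist3h2ba: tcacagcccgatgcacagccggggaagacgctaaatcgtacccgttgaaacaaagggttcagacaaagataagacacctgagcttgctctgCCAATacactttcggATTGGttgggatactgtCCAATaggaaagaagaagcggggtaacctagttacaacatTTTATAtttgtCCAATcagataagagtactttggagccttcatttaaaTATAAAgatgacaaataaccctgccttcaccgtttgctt
They span chr13:23622559-23622808 (minus strand) for Hist1h1e, chr13:21721794-21722043 (plus) for Hist1h2bm, chr11:58954435-58954684 (plus) for Hist3h2a and chr11:58948661-58948910 (plus) for Hist3h2ba. Both Hist3 windows hold CCAAT, so this motif is shared by genes with opposite patterns, and a match in letters shows no binding.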

How the data were processed

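The authors deposited 1 table per Drop-seq library. The P24-30 table holds natural log values, ln(1 + 10000 times a gene's share of the cell's UMIs), read from the deposited values and not stated in the labels; they gave whole UMIs within 0.001 in 100% of 6195642 values. The P12 table holds counts as the authors deposited them, taken as UMIs. Per the submitters' processing notes, CASAVA and mm10 were used. How reads were aligned, whether strand was used and how reads shared by copies were counted is not given in the sources read, so overlapping antisense genes cannot be told apart.

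Cells under 500 UMIs (146 at P24-30, 9 at P12) and over 20% mitochondrial UMIs (49 and 268) were left out. UMIs were summed per tag or state, with exact 95% ratio intervals. In a simulation of G2 over G13, 96.0% of intervals over 11085 genes contained the simulated ratio. For S-phase-like over neuron-like cells it was 96.5% over 11564 genes. Counts were drawn independently under the model of the intervals, so this checks the computation alone. It does not cover copies that share reads or UMIs concentrated in some cells. Of genes simulated at 2-fold, 50% and 54% were called in these comparisons, and of unchanged genes 4.31% and 4.19%. A call is a ratio of at least 2 or at most 0.5 among genes with 50 UMIs. A count of 0 was taken as 3 counts in ratios. No p-value was computed, with 1 library per age. P12 cells were clustered without the members (2000 variable genes, 30 components, 15 neighbours, Leiden resolution 1). A cluster was named at a mean marker log2 fold of 0.75 (pseudocount 20 CPM) with 3 raised markers, limits set after the clusters were seen. The members, lists and comparisons were chosen with earlier results of these data known. Named genes were the H1 members with at least 50 UMIs and the 3 members of each core class with the most UMIs. Hist3h2a at P24-30, Hist1h2bc and Hist3h2bb-ps at P12, Nasp, H2afx, Hist1h3b and the comparisons between cycling groups were chosen after their values were seen. Python 3.11.15, numpy 2.4.6, pandas 2.3.3, scipy 1.17.1, scanpy 1.11.5, leidenalg 0.10.2 and matplotlib 3.10.9 were used. Alternatives covered the cell and gene filters, thinning, equal cell weights, left-out members, highest H2A copy, cells with at least 1% choroid plexus and ependyma marker UMIs left out (5 in G13, 3 in G14, 1 each in G4 and G10), clustering settings and score-based states.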

Additional observations from a re-analysis of the deposited data

How the results depend on the processing

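Of 107 recomputed summed core and linker ratios, 80 stayed within the counting interval, 27 moved beyond it and 0 reversed; of the class and member ratios, 32 of 172 at P24-30 and 50 of 295 at P12 moved beyond it, and 2 reversed. For G2 over G13 the core ratio was 30.5 without the member with the most UMIs, 42.4 without the Hist3 members and 4.14 without H2A, and the linker ratio was 4.43 with cells thinned to 500 UMIs. For G1 over G13 these values were 25.8, 35.7, 4.59 and 5.01. For S-phase-like over neuron-like cells the core ratio was 13.9 without the Hist3 members, 3.68 at Leiden resolution 0.5 and 3.26 with states from per-cell scores; the linker ratio was 16.03 without the member with the most UMIs, 8.79 at resolution 0.5 and 6.75 with scores. For G1/S-licensing-like over neuron-like cells the core ratio was 3.55 with no filter on cells, 7.27 without the Hist3 members, 1.78 at resolution 1.5, 1.25 with histone genes kept in the clustering and 1.54 with scores. Its linker ratio was 7.65 with no filter, 7.39 without the member with the most UMIs, 2.87 at resolution 1.5, 1.67 with histone genes kept and 2.45 with scores. With histone genes kept, the licensing H2A and H2B ratios reversed to 0.876 and 0.903. For mitotic-like over neuron-like cells the core ratio was 8.15 without the Hist3 members, and the linker ratio was 6.37 without the member with the most UMIs and 3.33 with scores. Resolution 0.5 gave no licensing state and resolution 1.5 no S-phase-like state, so these have no value there. The number of genes at least 2-fold lower was 2139 for G2 over G13, but 3234 with genes of at least 20 UMIs and 1418 with at least 100; it was 1740 for S-phase-like and 1626 for mitotic-like over neuron-like cells, but 2614 and 2448 with at least 20, where more low genes enter. Leaving out cells rich in choroid plexus markers, an alternative chosen after seeing the data, kept the core and linker ratios of G2 and G1 to G13 within their counting intervals and moved Hist1h1c and Hist1h2bc beyond theirs. The causes of the other shifts were not tested.

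No paired analysis was possible because each age has 1 library and no replicate numbers. Intervals cover counting error alone, and the spread between animals was not measured. At these depths a typical cell holds few H1 UMIs at P24-30, so single cells were not classed by them. The level of a tag or state cannot tell more histone RNA per cell from more of it with a tail.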

Other observations

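Unnamed cluster 10 of the P12 library, with 80 cells and a median of 854.5 UMIs, held the highest level of 16 of the 55 members with at least 50 UMIs, against 35 in the S-phase-like cells. H1 was at 1201 and H4 at 494 CPM there, against 3799 and 533 in the S-phase-like cells. Its leading gene was Kcnq1ot1, a long noncoding RNA kept in the nucleus, and 1 of 24 S-phase markers was raised.

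Single cells set some levels at P24-30. Hist1h4i was at 696 CPM in G10, where 44 of its 47 UMIs came from 1 cell and the level without that cell was 44.8. In G12 it was at 289, with 64 of 95 UMIs from 1 cell, and at 94.5 without that cell.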
